A study of Mus musculus with 4 samples.

Results

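The 44 collagen chain genes of mouse retina and choroid were described cell class by cell class, after laser injury and in old age. They are the rows of the count matrix whose symbol reads Col, a number, a, a number and nothing more, 44 of 24783 genes. Of these, 11 encode fibrillar collagens, 8 collagens of basement membranes and 25 other collagens. Collagens are built from 3 chains wound into a triple helix. Fibrillar types form the cables of sclera, cornea and scar. Type IV forms the sheet under endothelium and retinal pigment epithelium (RPE), to which types XV and XVIII attach, and the remaining types decorate fibrils, form networks or span membranes. In neovascular disease of the macula, vessels grow from the choroid through Bruch's membrane, a collagen-rich layer beneath the RPE, and can end in a fibrous scar.

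The series used droplet single-cell RNA sequencing (10x Genomics) of pooled retina and choroid-sclera cells from wild-type mice, in 4 libraries with 1 library per group, to study the immune cells that enter the tissue. The aged CNV library came from mice over 18 months old and the young CNV library from mice of 6 to 8 weeks, both taken 3 days after laser burns (a 100 µm spot of 532 nm light, 200 mW for 0.150 s) that induce choroidal neovascularisation (CNV). The aged control and young control libraries came from mice of the same ages without lesions. All tissue was digested with papain, which can favour some cells, and rods were depleted from the retinal cells with antibodies against CD73. How many mice entered each library is not given in the sources used here, and with 1 library per group no difference could be tested against the spread between animals.

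Collagen UMIs, single captured RNA molecules, numbered 265125 in aged CNV, 173033 in aged control, 1779271 in young CNV and 528571 in young control. They were 0.384%, 0.340%, 1.59% and 0.766% of all UMIs in the same order, so both young libraries held a larger share than both aged ones, and each CNV library more than its control. The 4 libraries held 69011793, 50848238, 111908519 and 68966431 UMIs over 7731, 6676, 10867 and 11427 cells, and young control was the shallowest per cell. Pairs of libraries shared 14 to 29 cell barcodes. Every member had at least 1 UMI in every library, apart from Col6a4 with 0 UMIs in aged control. Cells were clustered without the collagen genes and clusters were named from marker genes that are not collagens, so a class is written X-like. Levels are summed UMIs of a class per 1000000 UMIs of that class (CPM), and a laser ratio is CNV CPM over control CPM, an age ratio aged CPM over young CPM. Intervals in parentheses are exact 95% intervals that cover counting error only, and levels of different genes are not compared because 3′ tags were counted.

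Fibroblast-like cells held most of the collagen UMIs, 77.3% in aged CNV, 70.3% in aged control, 91.8% in young CNV and 84.5% in young control. For the fibrillar group this share was 90.6%, 93.7%, 95.8% and 93.3%. Basement membrane collagens were spread more widely, with 32.6%, 31.9%, 45.9% and 33.7% of their UMIs in fibroblast-like cells and 27.3%, 17.3%, 34.2% and 29.3% in endothelial-like cells. RPE-like cells held 22.1% of the UMIs of the other collagens in aged control and 2.14% to 8.70% in the remaining libraries. Shares of UMIs follow the number of cells as well as RNA per cell, and these cannot be told apart for the tissue because rods were removed and suspensions mixed.

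**Figure D1:**
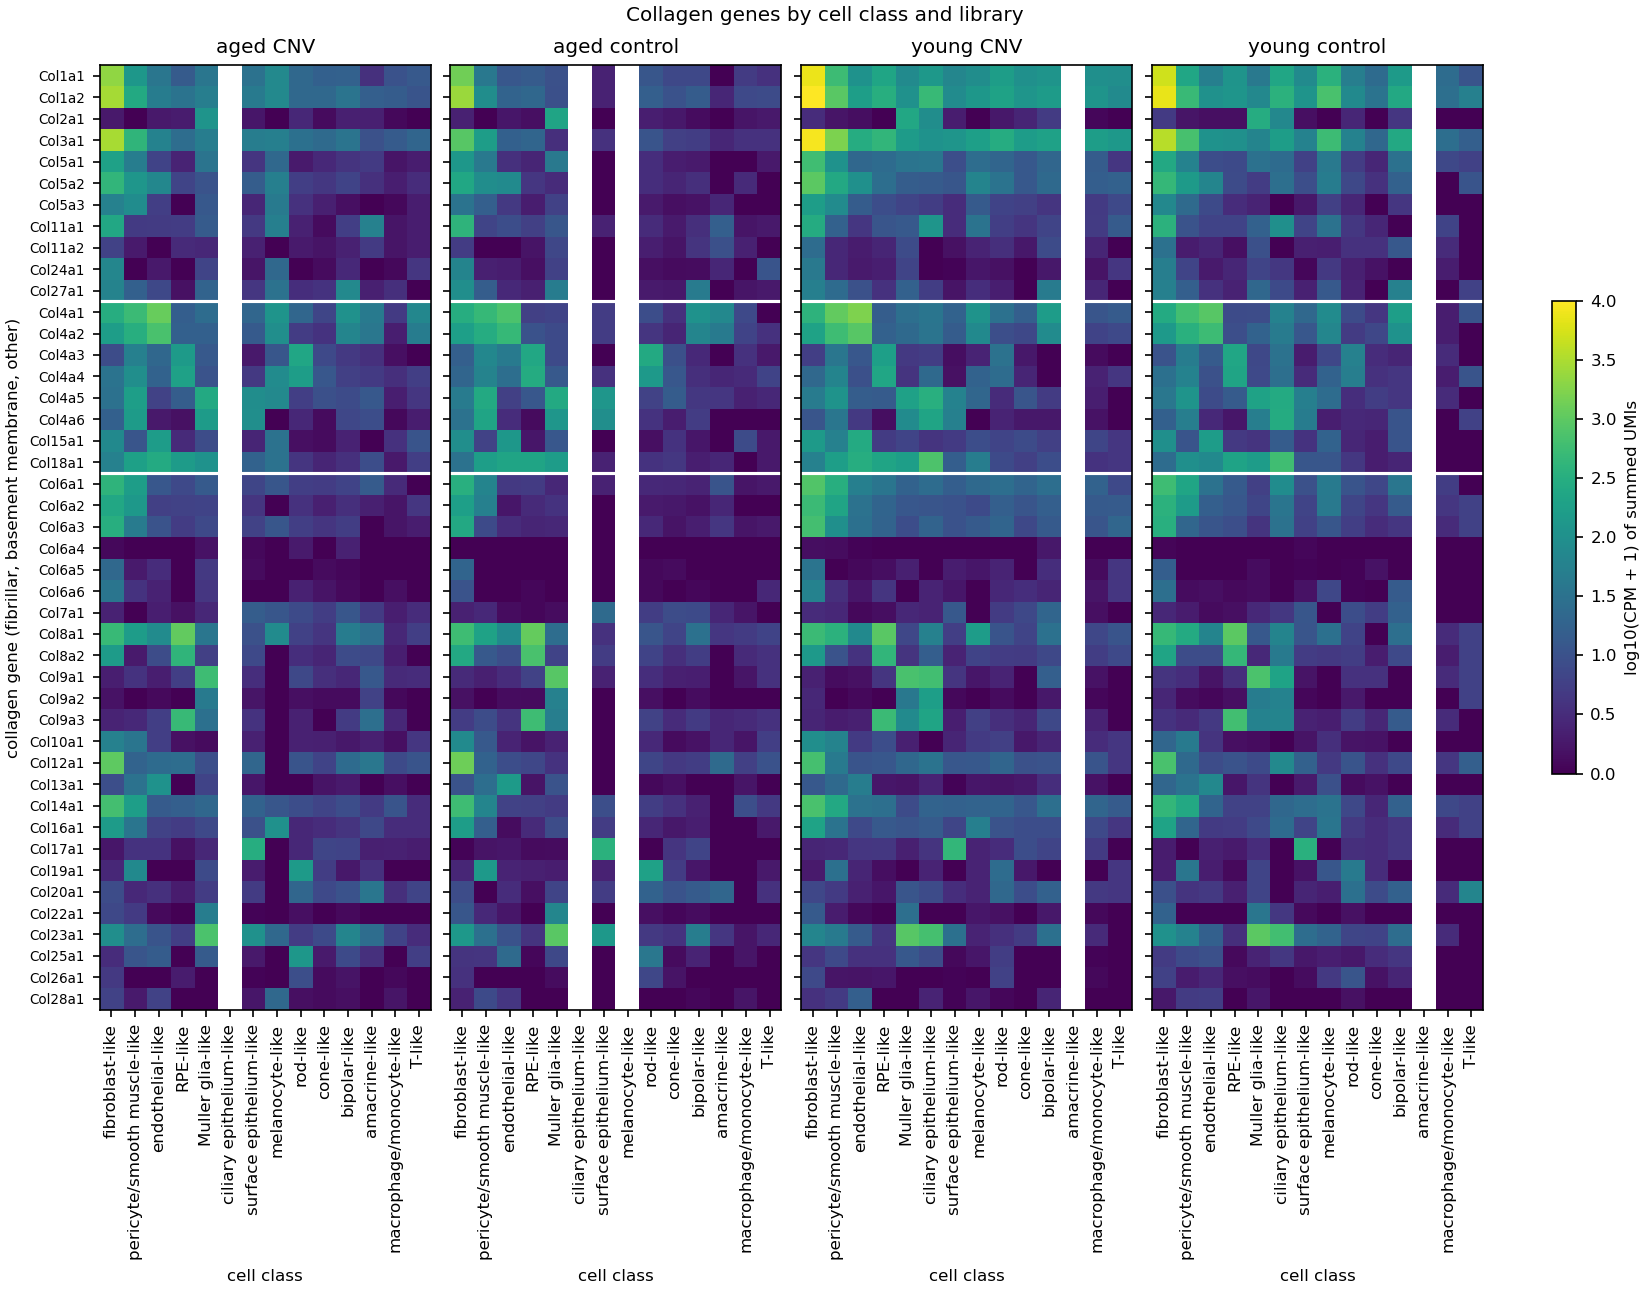
Level of each of the 44 collagen genes (rows) by cell class (columns) in the 4 libraries (panels), as log10 of CPM plus 1; white columns are classes with too few cells in that library and white lines part fibrillar, basement membrane and other collagens. Most fibrillar genes are brightest in fibroblast-like cells, but Col2a1 is brightest in Müller-glia-like cells, as are Col9a1 and Col23a1. Col4a1 and Col4a2 are brightest in endothelial-like cells, Col8a1 in RPE-like cells and Col17a1 in surface-epithelium-like cells.

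RNA released by broken cells gives each droplet some UMIs of genes its cell does not use, and fibrillar collagen RNA was found in cells that should lack it. Summed fibrillar CPM in rod-like cells were 86.2 in aged CNV, 47.6 in aged control, 730 in young CNV and 208 in young control, which is 0.939%, 0.840%, 2.58% and 1.19% of the level in fibroblast-like cells. Over rod-, cone-, bipolar-, T- and macrophage/monocyte-like cells this percentage spanned 0.457% to 1.92%, 0.329% to 1.41%, 1.25% to 2.58% and 0.490% to 4.46% in the same order. The 4.46% in young control is that of bipolar-like cells alone, from 87 cells. Rod-, cone-, T- and macrophage/monocyte-like cells of that library lay at 0.490% to 1.19%. A fibrillar level within these percentages is read here as background, and a class's fibrillar ratios are then not described. In RPE-like cells, fibrillar CPM of 85.9, 65.8, 1047 and 366 were 0.936%, 1.16%, 3.71% and 2.09% of the fibroblast-like level, within the background or, in young CNV, somewhat above it. In young control the RPE-like level was above every background class but bipolar-like cells.

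In fibroblast-like cells, fibrillar collagen RNA was higher after laser at both ages and lower in aged mice with and without lesions. Summed fibrillar CPM were 9180 in aged CNV, 5673 in aged control, 28247 in young CNV and 17479 in young control, so young control lay above aged CNV. The laser ratio was 1.62 (1.60 to 1.63) in aged and 1.62 (1.61 to 1.62) in young mice. The age ratio was 0.325 (0.323 to 0.327) between the CNV libraries and 0.325 (0.322 to 0.327) between the controls. Summed over the class, basement membrane collagens kept to a narrower range, 696, 728, 877 and 628 CPM, and so did the other collagens, 3689, 3929, 4541 and 3563 CPM. The 4 libraries held 1473, 1173, 3213 and 1825 fibroblast-like cells. Beside the age difference, the 9 collagen-free fibroblast markers that helped to name the class summed to 14008, 12837, 20655 and 22374 CPM, also lower in both aged libraries, and their part in the result was not tested. Scaling by trimmed means put the bulk of genes in these cells 0.20 (log2) higher in aged mice after laser and 0.11 without lesions, and gave fibrillar age ratios of 0.283 and 0.302.

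**Figure D2:**
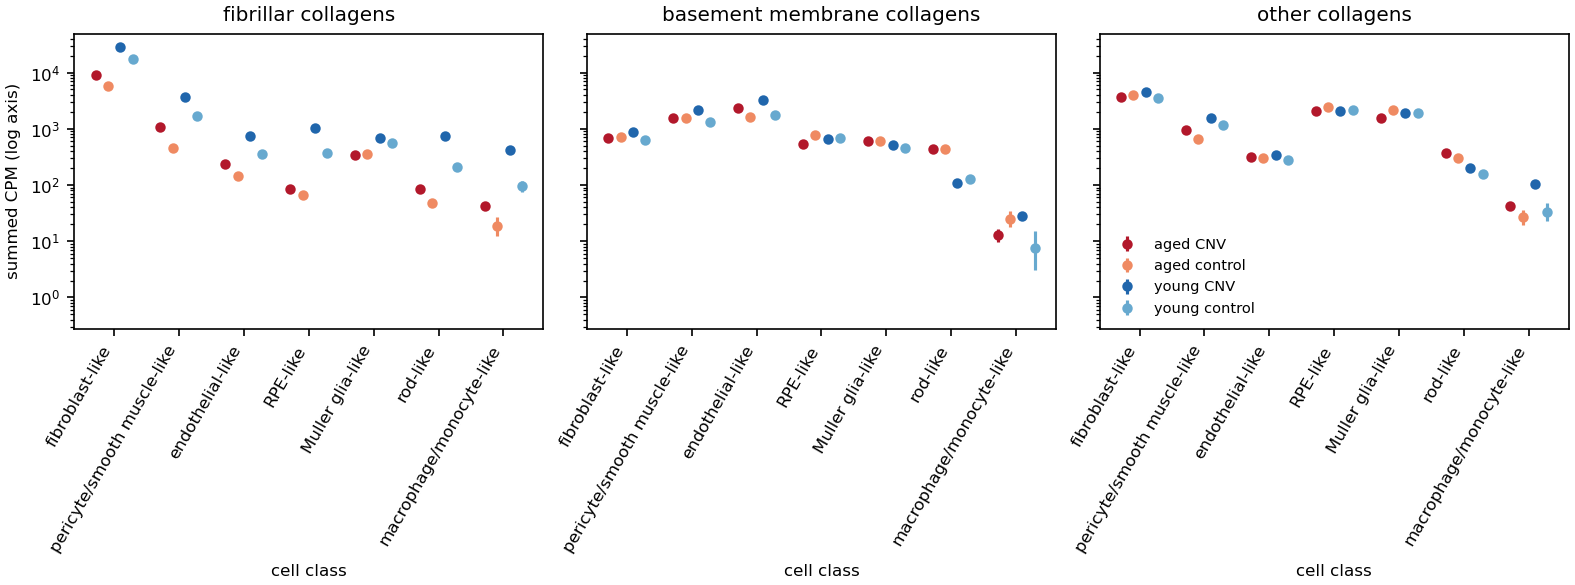
Summed CPM (log axis) of fibrillar, basement membrane and other collagens by cell class; each point is 1 library and bars are exact 95% Poisson intervals, often smaller than the point. Fibrillar collagens in fibroblast-like cells stand at 9180 CPM in aged CNV, 5673 in aged control, 28247 in young CNV and 17479 in young control, while basement membrane collagens are highest in endothelial-like cells, at 2379, 1625, 3193 and 1752 CPM.

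The major fibrillar chains differed in how strongly they moved. Col3a1, the single chain of type III collagen of elastic tissue and early scar, was at 3029 CPM in aged CNV, 907 in aged control, 8870 in young CNV and 3704 in young control. Its laser ratio was 3.34 (3.27 to 3.41) in aged and 2.39 (2.38 to 2.41) in young mice, and among the other libraries only young CNV lay above young control. Col1a1 and Col1a2 encode the chains of type I collagen, the main fibril of sclera and scar. Col1a1 was at 2166, 1339, 7513 and 5081 CPM in the same order of libraries, with laser ratios of 1.62 (1.59 to 1.65) in aged and 1.48 (1.47 to 1.49) in young mice. Col1a2 was at 2923, 2469, 9732 and 7385 CPM, with laser ratios of 1.18 (1.17 to 1.20) and 1.32 (1.31 to 1.33). For both type I chains the 2 young libraries lay above the 2 aged ones, with age ratios of 0.264 and 0.334 between controls and 0.288 and 0.3003 between CNV libraries.

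Type V collagen starts fibrils and sets their width. Col5a1 was at 195 CPM in aged CNV, 129 in aged control, 584 in young CNV and 260 in young control, and Col5a2 at 432, 238, 965 and 463 CPM. Col5a3, a rarer type V chain, was at 55.3, 31.9, 170 and 71.4 CPM. All 3 genes were at least 2-fold higher after laser in young mice, with laser ratios of 2.24, 2.08 and 2.38, and in aged mice their laser ratios were 1.51, 1.81 and 1.73. Of the type XI chains, Col11a1, a fibril-starting chain known from cartilage and vitreous, was at 247, 398, 293 and 375 CPM, lower after laser at both ages, with ratios of 0.621 (0.594 to 0.649) in aged and 0.780 (0.759 to 0.803) in young mice. Col11a2 was at 5.15, 4.22, 24.9 and 30.2 CPM, with laser ratios of 1.22 in aged and 0.823 in young mice, and had age ratios of 0.207 after laser and 0.139 without lesions. Col24a1 and Col27a1, minor fibrillar chains, did not share the lower aged levels. Col24a1 was at 66.6, 63.7, 40.1 and 49.7 CPM and Col27a1 at 60.6, 92.2, 52.8 and 54.4 CPM, and their age ratios lay between 1.15 and 1.69.

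Collagen X stood apart among the other collagens. Col10a1, which forms a hexagonal network known from growth plate cartilage, was at 57.1 CPM in aged CNV, 82.5 in aged control, 92.3 in young CNV and 19.7 in young control. Young control was low and the other libraries lay within a narrower range. In aged mice its laser ratio was 0.692 (0.629 to 0.761), and in young mice 4.69 (4.23 to 5.22). The 80 bases before the annotated starts of Col3a1 and Col10a1 are shown because these genes had the highest young laser ratio among the fibrillar and among the other members at 20 CPM or more in fibroblast-like cells. They are read from RefSeq promoter windows of GRCm38.p6 on the plus strand at chr1:45311458-45311537 and chr10:34389901-34389980, and capitals mark a match to TATAAA.
Col3a1 upstream: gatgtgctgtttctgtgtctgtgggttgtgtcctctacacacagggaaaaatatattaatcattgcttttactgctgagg
Col10a1 upstream: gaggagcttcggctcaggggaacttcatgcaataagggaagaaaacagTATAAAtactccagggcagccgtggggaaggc
The TATAAA of Col10a1 begins 32 bases before the start. Searched on both strands in windows of 300 bases, 250 before to 50 after a start, TATAAA was in 5 of 38 windows of collagen genes (13.2%) and in 13.6% of all 32851 windows. Col3a1 was among the collagen genes with a match in such a window, outside the 80 bases shown. CCAAT was in 13 of 38 (34.2%) against 37.4% of all, and GGGCGG in 23 of 38 (60.5%) against 35.7% of all. These are letter matches only. Windows were found for 35 of the 44 members, and a gene can have several.

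Type VI collagen forms a beaded filament around cells. Col6a1 was at 402 CPM in aged CNV, 331 in aged control, 811 in young CNV and 570 in young control, Col6a2 at 250, 180, 537 and 368 CPM, and Col6a3 at 321, 254, 636 and 334 CPM. The 3 genes were higher in each CNV library than in its control, with laser ratios of 1.21 to 1.39 in aged and 1.42 to 1.90 in young mice, above those of Col1a2 and below those of Col3a1 at both ages. Of the alternative chains that can take the place of the Col6a3 chain, Col6a6 was at 35.2, 9.60, 58.9 and 27.6 CPM, with laser ratios of 3.66 (2.97 to 4.56) and 2.14 (1.95 to 2.35). Col6a5 was at 21.2, 18.1, 34.0 and 14.96 CPM, with laser ratios of 1.17 and 2.27. Col6a4 was at 0.384 CPM or less in every library, with 3, 0, 18 and 3 UMIs.

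Fibril-associated collagens, which sit on fibrils and link them to other matrix, were not lower in aged mice as a group, with 1837 CPM in aged CNV, 2077 in aged control, 1610 in young CNV and 1399 in young control. Col12a1, found on type I fibrils under load, was at 1020, 1300, 668 and 706 CPM, and both aged libraries lay above both young ones, with age ratios of 1.53 (1.498 to 1.56) after laser and 1.84 (1.80 to 1.88) without lesions. Col14a1, which regulates early fibril growth, was at 643, 580, 713 and 452 CPM, and Col16a1 at 155, 170, 205 and 207 CPM. The type VIII chains form a lattice in Bruch's membrane and in the corneal Descemet membrane. Col8a1 was at 491, 565, 523 and 480 CPM and Col8a2 at 157, 258, 145 and 212 CPM, and Col8a2 was lower after laser at both ages, with ratios of 0.610 and 0.681. The membrane-spanning Col23a1 was at 95.1, 135, 65.5 and 106 CPM and was lower after laser at both ages too, with ratios of 0.703 and 0.620.

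Counted over the members with at least 20 UMIs in the 2 libraries of a comparison, 10 of 44 were at least 2-fold higher and 2 at least 2-fold lower after laser in young fibroblast-like cells, against 4.82% and 6.3% of all genes so counted. The 10 were Col3a1, Col5a1, Col5a2, Col5a3, Col6a4, Col6a5, Col6a6, Col10a1, Col18a1 and Col28a1, of which Col6a4 rests on 18 and 3 UMIs. In aged mice 3 of 41 were higher and 2 lower, against 6.69% and 2.63% of all genes, and the 3 were Col3a1, Col6a6 and Col28a1. Between CNV libraries 0 of 44 were higher and 12 lower in aged mice, against 11.8% and 4.77% of all genes, and 8 of the 12 were among the 11 fibrillar genes. Between controls 1 of 43, Col10a1, was higher and 12 lower in aged mice, against 7.14% and 6.8% of all genes, and 7 of the 12 were fibrillar. The median log2 ratio of the fibrillar genes was 0.29 for laser in aged and 0.40 in young mice, and -1.55 and -1.16 for age after laser and without lesions, beside -0.06, -0.09, 0.18 and 0.10 over all genes in the same order. Col4a3 was lower after laser at both ages but stood in these cells at 4.59 to 15.3 CPM, below its levels in RPE-like cells. With each cell thinned to 1000 UMIs, 6 members were at least 2-fold higher after laser in young mice, and 6 lower in aged mice without lesions. With clusters weighted equally, 4 members were at least 2-fold higher after laser in young mice.

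**Figure D3:**
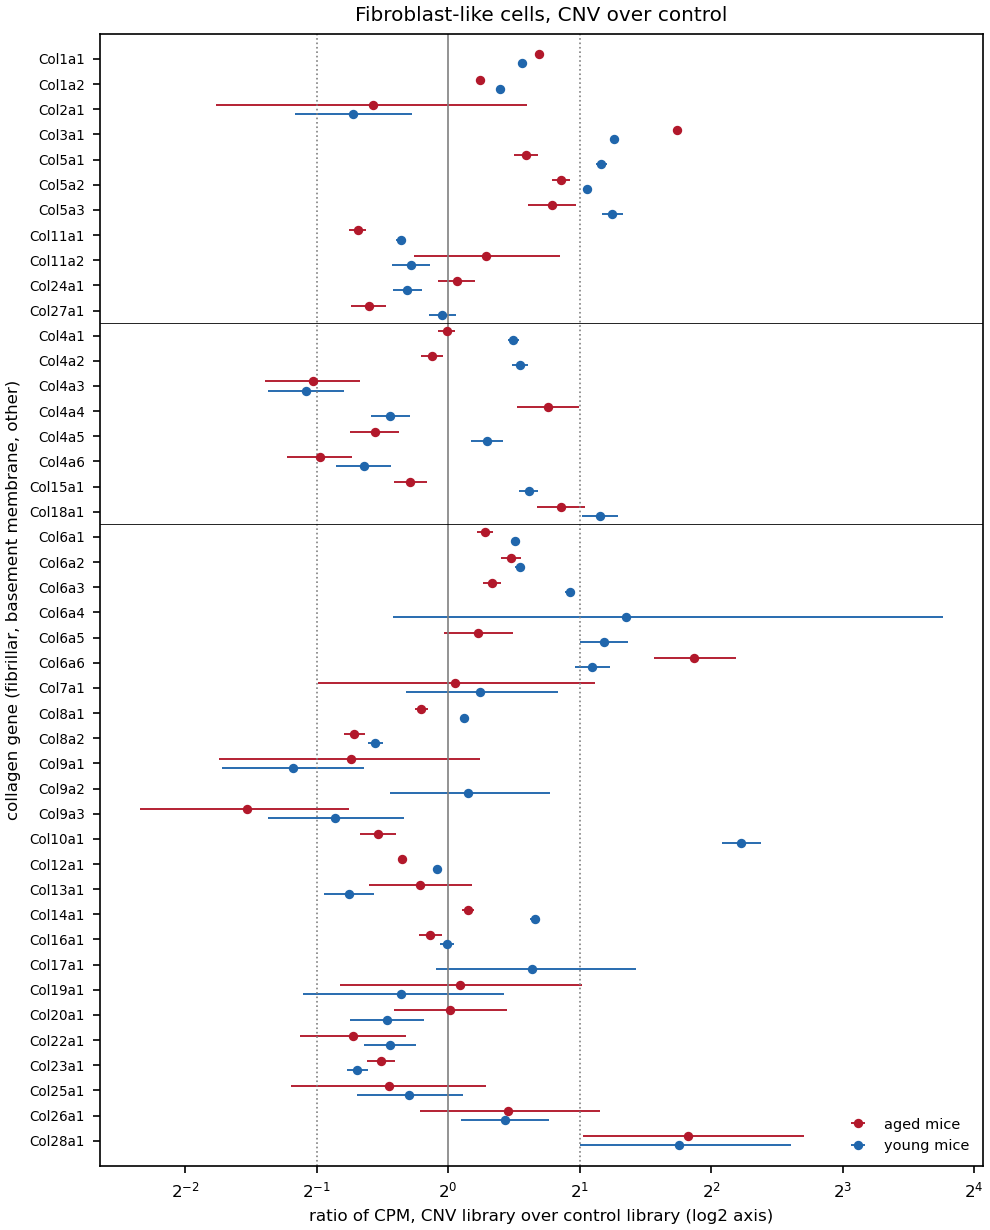
Laser ratio (CNV CPM over control CPM, log2 axis) of each collagen gene in fibroblast-like cells, aged mice in red above young mice in blue, with exact 95% intervals for counting error; dotted lines mark 2-fold. Col3a1 lies past 2-fold at both ages, Col10a1 at 4.69 in young and 0.692 in aged mice, and Col11a1, Col8a2 and Col23a1 lie below 1 at both ages.

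**Figure D4:**
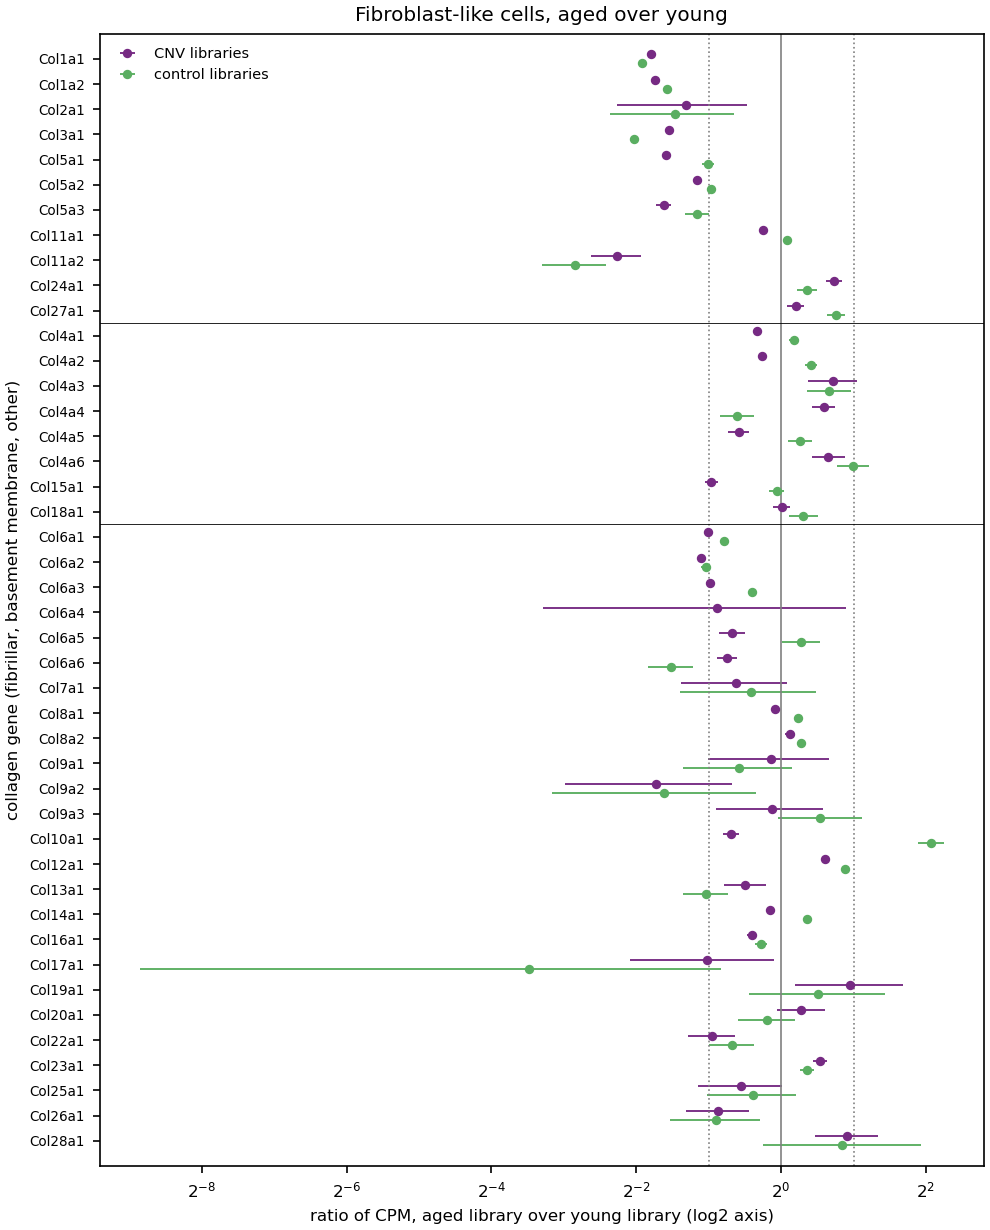
Age ratio (aged CPM over young CPM, log2 axis) of each collagen gene in fibroblast-like cells, CNV libraries in purple above control libraries in green, with exact 95% intervals for counting error; dotted lines mark 2-fold. Most fibrillar genes lie left of 1 in both, while Col24a1, Col27a1 and Col12a1 lie right of 1 in both and Col10a1 lies at 0.618 after laser and 4.19 without lesions.

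Genes that make and mature collagen were described in the same cells. The shares of all genes to set beside their counts are 6.69% higher after laser in aged mice, 4.82% higher after laser in young mice, and in aged mice 11.8% higher and 4.77% lower after laser and 7.14% higher and 6.8% lower without lesions. Of 22 genes of collagen synthesis, 2 were at least 2-fold higher after laser in aged mice and 3 in young mice, and 5 were lower in aged mice after laser and 1 without lesions. All 22 could be counted in each comparison. Serpinh1, the collagen chaperone HSP47, was at 502 CPM in aged CNV, 392 in aged control, 1162 in young CNV and 682 in young control. P4ha3, a prolyl hydroxylase chain, was at 15.9, 3.95, 30.8 and 7.16 CPM, with laser ratios of 4.04 (2.92 to 5.71) in aged and 4.30 (3.62 to 5.15) in young mice. Plod2, the lysyl hydroxylase of scar-type crosslinks, was at 56.5, 51.6, 115 and 48.8 CPM, high only in young CNV. P3h3, which modifies prolines, was at 64.9, 83.9, 180 and 211 CPM, with age ratios of 0.361 and 0.398.

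Of 14 genes that mature collagen outside the cell, all counted in each comparison, 5 were at least 2-fold higher after laser in aged mice and 3 in young mice. In aged mice 2 were higher and 3 lower after laser, and 2 were higher and 6 lower without lesions. Lox, a crosslinking lysyl oxidase, was at 343 CPM in aged CNV, 276 in aged control, 336 in young CNV and 127 in young control, low in young control alone. Loxl2, a relative of Lox, was at 54.7, 26.2, 157 and 85.0 CPM. Bmp1, which cuts off the C-terminal propeptide, was at 176, 68.8, 210 and 123 CPM, with laser ratios of 2.55 (2.36 to 2.77) in aged and 1.71 (1.64 to 1.79) in young mice. Sparc, a collagen-binding protein, was at 2565, 2165, 8542 and 7219 CPM, with age ratios of 0.30 in both settings, close to those of Col1a2. Of 7 fibril-binding proteoglycans, all counted, 0 passed 2-fold after laser at either age, and with age 1 was lower after laser and 2 without lesions. Kera, a corneal proteoglycan, was at 10.8, 14.9, 59.0 and 77.8 CPM, with age ratios of 0.183 and 0.191. Of 10 collagen receptors, 9 could be counted, or 8 between the controls. Of these, 0 passed 2-fold after laser in aged mice and 1 in young mice, Lair1, from 48 and 5 UMIs. Between aged and young, 1 receptor was higher after laser, Itga10, and 0 without lesions.

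Fibroblast-like cells fell into 6 clusters, and their shares differed between libraries. Cluster 2, led by Clec3b, Tnfaip6 and Dpt, was 35.0% of fibroblast-like cells in aged CNV, 12.02% in aged control, 44.7% in young CNV and 21.0% in young control, so it was larger in both CNV libraries. Cluster 3, led by Pappa2, Pgf and Aox3, was 29.3%, 43.6%, 26.4% and 37.5%, and cluster 8, led by Myoc, Chil1 and Ecrg4, 22.4%, 34.6%, 15.4% and 27.1%, both smaller in the CNV libraries. Cluster 17, led by Mmp3, Angptl7 and Matn4, and cluster 26, led by Fmod, Kera and Ptx4, made up most of the rest, and cluster 56 had at most 35 cells in a library.

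Within clusters the fibrillar laser ratios differed. In cluster 3 summed fibrillar CPM were 6165 in aged CNV, 3377 in aged control, 11592 in young CNV and 4127 in young control, laser ratios of 1.83 (1.79 to 1.86) in aged and 2.81 (2.77 to 2.85) in young mice. In cluster 2 they were 13068, 7229, 37857 and 27992 CPM, ratios of 1.81 (1.77 to 1.85) and 1.35 (1.34 to 1.36), and in cluster 8 they were 6775, 6079, 13761 and 11124 CPM, ratios of 1.11 and 1.24. Cluster 17 held 11550, 12465, 47359 and 45825 CPM, laser ratios near 1 at 0.927 and 1.03. With the 4 libraries' clusters weighted equally the class-wide laser ratio was 1.35 in aged and 1.23 in young mice. The lower aged level was seen in all 5 clusters of 20 or more cells in the libraries compared, with age ratios of 0.244 to 0.532 after laser and 0.258 to 0.818 without lesions. Basement membrane collagens differed in direction between clusters. Their young laser ratio was 0.825 in cluster 2 and 0.736 in cluster 26. It was 1.98 in cluster 3, 1.32 in cluster 8 and 1.31 in cluster 17.

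**Figure D5:**
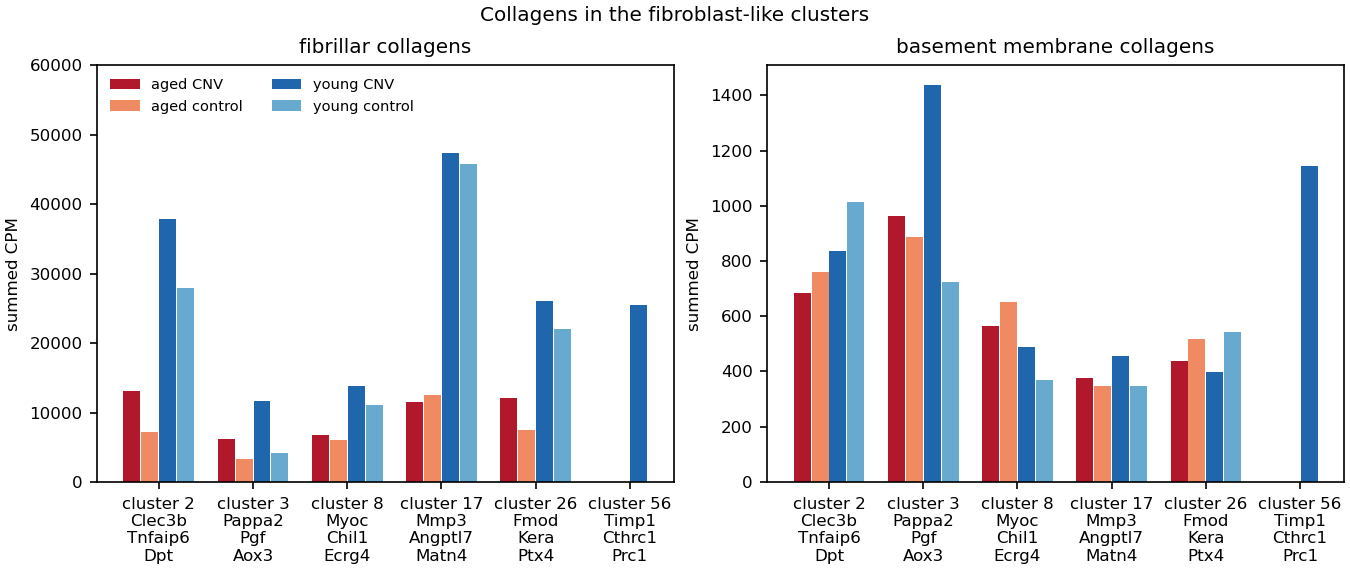
Summed CPM of fibrillar (left) and basement membrane (right) collagens in the fibroblast-like clusters, labelled by number and leading genes, 1 bar per library; libraries with under 20 cells in a cluster have no bar, which leaves young CNV alone in cluster 56. In cluster 3 the young CNV bar of 11592 fibrillar CPM is 2.81 times the young control bar of 4127, and in cluster 17 the bars stand at 11550 in aged CNV, 12465 in aged control, 47359 in young CNV and 45825 in young control.

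Col3a1 had its highest aged laser ratios in the clusters where aged control was lowest. Aged control is the denominator of this ratio, so a low level there raises it. In cluster 17 it was at 1253 CPM in aged CNV, 62.7 in aged control, 4672 in young CNV and 2555 in young control, an aged laser ratio of 19.99 (14.99 to 27.2), while Col1a1 there was at 3737 CPM in aged CNV and 4057 in aged control. In cluster 26 Col3a1 was at 1661, 151, 1302 and 1604 CPM, an aged laser ratio of 10.99 (7.32 to 17.3) from 593 and 24 UMIs. The aged control library held 85 cells of cluster 17 and 29 of cluster 26. In cluster 3 Col3a1 was at 2286, 802, 3997 and 1172 CPM, ratios of 2.85 (2.74 to 2.97) in aged and 3.41 (3.32 to 3.51) in young mice.

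Col10a1 in cluster 3 was at 175 CPM in aged CNV, 186 in aged control, 353 in young CNV and 68.7 in young control. Its young laser ratio was 5.14 (4.60 to 5.74), while aged CNV and aged control lay closer together than over the class. Cluster 3 was 29.3% of fibroblast-like cells in aged CNV and 43.6% in aged control, and the part of this share was not tested. In cluster 2 Col10a1 had at most 62 UMIs in a library. Col12a1 in cluster 3 was at 188, 137, 197 and 20.1 CPM and Col6a3 at 212, 93.4, 269 and 38.7 CPM, both lowest in young control, with young laser ratios of 9.80 (8.04 to 12.05) and 6.95 (6.02 to 8.06). For Col12a1, aged CNV lay below young CNV in this cluster, unlike over the class. Col18a1 in cluster 3 was at 110, 44.0, 91.8 and 21.1 CPM, higher in each CNV library than in its control. The 9 pericyte and smooth muscle markers summed to 1095, 908, 1704 and 622 CPM in cluster 3, in the same order of libraries as several of these genes, and their part in the result was not tested.

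Endothelial-like cells carried the most basement membrane collagen of the named tissue classes, and more of it after laser at both ages. Summed basement membrane CPM were 2379 in aged CNV, 1625 in aged control, 3193 in young CNV and 1752 in young control, in 466, 420, 860 and 593 cells. The laser ratio was 1.46 (1.41 to 1.52) in aged and 1.82 (1.78 to 1.86) in young mice. The age ratio was 0.745 (0.727 to 0.763) after laser. Without lesions it was 0.928 (0.896 to 0.961), but 1.18 with clusters weighted equally and 1.02 without 2 clusters of mixed markers, so no direction is given for it. Fibrillar CPM in these cells were 232, 144, 735 and 356, or 2.53%, 2.54%, 2.60% and 2.04% of the fibroblast-like level. Set against the highest background percentages of 1.92%, 1.41%, 2.58% and 4.46%, they lay above the background in both aged libraries, at its top in young CNV and within it in young control. The 4.46% is that of bipolar-like cells alone, and the other background classes of young control lay at 0.490% to 1.19%, below the endothelial-like level.

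Col4a1 and Col4a2 form the common type IV collagen of vessel walls. Col4a1 in endothelial-like cells was at 1169 CPM in aged CNV, 725 in aged control, 1656 in young CNV and 920 in young control, and Col4a2 at 722, 475, 908 and 561 CPM. Both were higher in each CNV library than in its control, with laser ratios of 1.61 and 1.52 in aged and 1.80 and 1.62 in young mice. The 2 genes run away from each other on chromosome 8 and their annotated starts overlap by 22 bases, shown because both genes lie on this stretch. It is chr8:11312805-11312826 of GRCm38.p6, plus strand, with starts from GENCODE, letters from RefSeq and a GGGCGG match in capitals.
Col4a1 and Col4a2 shared stretch: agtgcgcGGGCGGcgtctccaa
Across cell classes the levels of the 2 genes had Spearman coefficients of 0.90, 0.76, 0.92 and 0.89 in aged CNV, aged control, young CNV and young control, over 26, 22, 22 and 21 classes that share library and depth, and both were highest in endothelial-like cells in all 4 libraries. Whether counting used strand is not given in the sources used here, so reads inside the overlap may have been counted for either gene.

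Col18a1, whose C-terminal fragment is endostatin, differed most among the endothelial members. It was at 281 CPM in aged CNV, 219 in aged control, 311 in young CNV and 78.8 in young control, low in young control alone. In aged mice its laser ratio was 1.28, in young mice 3.94 (3.58 to 4.35), and its age ratio without lesions was 2.78. Col15a1, the related type XV chain, was at 162, 131, 280 and 161 CPM, with laser ratios of 1.24 in aged and 1.74 in young mice. Col13a1, a membrane-spanning collagen, was at 110, 149, 47.8 and 71.9 CPM, higher in both aged libraries, with age ratios of 2.30 and 2.07. The largest endothelial-like cluster held 377 of 466 cells in aged CNV and 397 of 420 in aged control. In young CNV it held 487 of 860 cells and in young control 441 of 593. The part of this share in the Col13a1 age ratios was not tested.

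In cluster 9, led by Plvap, Igfbp3 and Cldn5 and present with 377, 397, 487 and 441 cells, Col4a1 was at 1190 CPM in aged CNV, 728 in aged control, 1469 in young CNV and 697 in young control. Its laser ratio there was 1.63 (1.55 to 1.73) in aged and 2.11 (2.02 to 2.20) in young mice. Col18a1 in cluster 9 was at 318, 227, 438 and 95.3 CPM, a young laser ratio of 4.59 (4.14 to 5.10). Cluster 20, led by Gpihbp1, Timp4 and C1qtnf9, had 77, 17, 239 and 83 cells. In it Col4a1 was at 1107, 1006, 2338 and 1914 CPM, and Col18a1 at 2.91, 0, 17.1 and 17.0 CPM, far below its level in cluster 9 in every library. The 9 pericyte and smooth muscle markers summed to 451, 302, 2360 and 1577 CPM in endothelial-like cells, higher in the young libraries, and the basement membrane laser ratio was 1.98 in young mice without the 2 clusters of mixed markers.

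By the same count, 10 of 27 members in endothelial-like cells were at least 2-fold higher and 1 lower after laser in aged mice, against 6.85% and 2.69% of all genes. In young mice 9 of 34 were higher and 4 lower, against 5.1% and 4.92%. Between CNV libraries 6 of 32 were higher and 12 lower in aged mice, against 10.0% and 6.21%, and between controls 5 of 30 were higher and 10 lower, against 7.95% and 8.5%. These counts include fibrillar genes whose level lay within the background in young control and at its top in young CNV, and Col1a1, Col1a2 and Col3a1, higher after laser in aged mice, stood at 11.1 to 57.6 CPM.

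Pericyte/smooth-muscle-like cells, which wrap vessels, held both groups. Basement membrane CPM were 1527 in aged CNV, 1563 in aged control, 2129 in young CNV and 1339 in young control, with laser ratios of 0.977 (0.917 to 1.04) in aged and 1.59 (1.53 to 1.65) in young mice. Fibrillar CPM were 1088, 462, 3601 and 1684, or 11.8%, 8.14%, 12.7% and 9.63% of the fibroblast-like level and above the background of every library. Their laser ratio was 2.36 (2.15 to 2.59) in aged and 2.14 (2.07 to 2.21) in young mice. The 9 fibroblast markers summed to 970, 555, 1727 and 1669 CPM in these cells, higher in aged CNV than in aged control, and their part in the fibrillar ratios was not tested. The libraries held 188, 211, 365 and 404 of these cells.

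The 2 clusters of the class had unlike shares in the aged libraries. Cluster 19 had 65 of the cells in aged CNV, 34 in aged control, 194 in young CNV and 200 in young control, and cluster 16 had 123, 177, 171 and 204. Within clusters the aged ratios were lower than over the class. The fibrillar laser ratio was 1.74 (1.47 to 2.07) in cluster 16 and 1.46 (1.30 to 1.64) in cluster 19 in aged mice, and 1.78 and 1.97 in young mice. The basement membrane laser ratio in aged mice was 0.830 (0.760 to 0.906) in cluster 16 and 0.796 (0.723 to 0.876) in cluster 19, below 1 in both, and in young mice it was 1.37 and 1.61.

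Col5a3 in these cells was at 88.6 CPM in aged CNV, 15.2 in aged control, 83.6 in young CNV and 23.2 in young control, and both CNV libraries lay above both controls. Its laser ratio was 5.83 in aged and 3.61 in young mice, and the level lay in cluster 19, with Abcc9 and Ndufa4l2 among its leading genes, at 260 CPM, 91.5, 152 and 52.2. Within cluster 19 the Col5a3 laser ratio was 2.85 (1.80 to 4.66) in aged and 2.91 (2.21 to 3.89) in young mice. Col6a3 was at 44.7, 6.97, 97.3 and 20.2 CPM, with laser ratios of 6.42 and 4.83, or 4.05 and 4.16 within cluster 19. Col4a5 and Col4a6, chains of the type IV network of smooth muscle, were higher in aged mice. Col4a6 was at 154, 219, 36.7 and 50.7 CPM, with age ratios of 4.19 after laser and 4.31 without lesions, and Col4a5 at 176, 263, 112 and 115 CPM. In cluster 16, led by Myh11, Pln and Acta2, Col4a6 was at 187, 244, 54.6 and 66.7 CPM, so the difference was present within 1 cluster. Col19a1, a fibril-associated chain found at basement membranes, was at 77.4, 137, 29.4 and 35.6 CPM, with age ratios of 2.63 and 3.86.

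By the same count, 10 of 26 members were at least 2-fold higher and 1 lower after laser in aged pericyte/smooth-muscle-like cells, against 5.55% and 3.35% of all genes, and 5 of 32 were higher and 1 lower in young mice, against 2.78% and 4.07%. Between CNV libraries 2 of 29 were higher and 12 lower in aged mice, against 9.14% and 6.7%, and between controls 3 of 30 were higher and 10 lower, against 7.87% and 9.17%.

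RPE-like cells expressed type VIII collagen, the type IV chains Col4a3 and Col4a4, and Col9a3. Col8a1 was at 1112 CPM in aged CNV, 1136 in aged control, 938 in young CNV and 990 in young control, and Col8a2 at 416, 697, 424 and 455 CPM, highest in aged control. Col9a3, a chain of fibril-associated type IX collagen, was at 497, 578, 541 and 624 CPM. Col4a3, whose product joins that of Col4a4 in a tighter type IV network, was at 149, 250, 179 and 230 CPM, and Col4a4 at 192, 292, 229 and 219 CPM. Over these 5 genes and the 4 comparisons the ratios lay between 0.597 and 1.53. The 2 type IV genes also run away from each other, on chromosome 1, with 71 bases between their annotated starts, shown for comparison with the overlapping pair. The stretch is chr1:82586850-82586920 of GRCm38.p6, written on the minus strand, with starts from GENCODE and letters from RefSeq, and held none of the 3 motifs.
Col4a4 to Col4a3 gap: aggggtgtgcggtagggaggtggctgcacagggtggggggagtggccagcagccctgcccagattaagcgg
Their levels across classes had Spearman coefficients of 0.72, 0.77, 0.74 and 0.88 in aged CNV, aged control, young CNV and young control. For Col4a5 and Col4a6, 1308 bases apart on chromosome X, the coefficients were 0.78, 0.69, 0.87 and 0.74.

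Müller-glia-like cells, the radial glia that lay down the inner limiting membrane, expressed Col9a1 and Col23a1 and a little Col2a1, the type II chain of vitreous and cartilage. Col9a1 was at 572 CPM in aged CNV, 928 in aged control, 712 in young CNV and 728 in young control, and Col23a1 at 727, 935, 912 and 981 CPM. Both were lowest in aged CNV. Col2a1 was at 116, 216, 249 and 297 CPM, lower in each CNV library than in its control, with laser ratios of 0.537 in aged and 0.840 in young mice and age ratios of 0.465 and 0.729. Col4a6 was at 155, 124, 84.3 and 49.7 CPM, higher in both aged libraries as in pericyte/smooth-muscle-like cells, with age ratios of 1.84 and 2.49. Col4a5 was at 267, 270, 195 and 200 CPM. In surface-epithelium-like cells Col17a1, the membrane-spanning collagen of hemidesmosomes, was at 315, 352, 444 and 346 CPM, with ratios of 0.711 to 1.28 in the 4 comparisons, and aged control held 30 such cells.

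Rod-like cells, those that escaped depletion, held more RNA of Col4a3, Col4a4 and Col19a1 in aged than in young mice. Col4a3 was at 229 CPM in aged CNV, 272 in aged control, 31.2 in young CNV and 57.2 in young control, with age ratios of 7.32 after laser and 4.76 without lesions. Col4a4 was at 170, 143, 24.7 and 49.7 CPM and Col19a1 at 150, 192, 25.0 and 43.4 CPM, and for all 3 genes both aged libraries lay above both young ones. Within rod cluster 6 Col4a3 was at 343, 254, 49.4 and 46.1 CPM, and within rod cluster 10 at 114, 195, 26.1 and 26.2 CPM. In rod cluster 15 Col4a3 was at 81.1, 169, 18.1 and 19.4 CPM, from 9, 39, 14 and 1 UMIs, and the summed basement membrane level there had an age ratio of 1.15 (0.603 to 2.04) after laser and 2.95 (1.20 to 9.39) without lesions. Col25a1, a membrane-spanning collagen known from neurons, was at 128, 36.9, 4.39 and 0.805 CPM in rod-like cells. Its higher aged level lay in cluster 12, which had 322, 668, 10 and 31 cells in the 4 libraries, so cells of that cluster and age cannot be told apart. In cluster 12 Col25a1 was at 208 CPM in aged CNV and 48.8 in aged control. Rod-like cells had a mean of 2907, 3442, 2183 and 1706 UMIs.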

How the data were processed

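The authors deposited raw UMI counts as 1 matrix of 24783 genes and 36701 cells. Per the submitters' processing notes the authors used Cell Ranger and Seurat 4.1.1 on mm10. Annotation and use of strand: not given in the sources used here. Column prefixes gave the 4 libraries, with e read as aged, and 0 columns were left unmapped. Cells with a Scrublet score above 0.2 were removed, which left 35590, and the rest were clustered without collagen genes (scanpy 1.11.5, 2000 variable genes, 40 components, 20 neighbours, leidenalg 0.10.2 at resolution 1.0, seed 1). Clusters where 30% or more of the cells had Ptprc, a leukocyte gene, were split again. Of 63 clusters 10 stayed unnamed. A name needed 3 markers.

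UMIs were summed per class and library (Python 3.11.15, numpy 2.4.6, pandas 2.3.3). Intervals are exact Poisson ones for CPM and conditional binomial ones for ratios (scipy 1.17.1), with 3 counts as the floor for 0 UMIs. The ratio intervals were tested on simulated counts at the rates of fibroblast-like and endothelial-like cells. The CPM intervals and the naming steps were not tested in this way. The alternatives tried were trimmed-mean and median-of-ratios scaling (R 4.3.3, edgeR 4.0.16, used for factors only), totals without collagens, thinning to 1000 UMIs, no doublet removal, clustering with collagens, cells picked by their own markers, equal cluster weights, no UMI minimum and a fold of 1.5. Members were named where they reached 20 CPM in 1 library of a class, 20 UMIs over the comparison and 0.1 of the level in the highest class, those 2-fold apart first and then the most abundant, and list genes were named up to 4 per list by size of ratio under the same minima. Low members and list genes outside this rule were chosen after their values were seen. Ratios within clusters needed 20 cells. The members and the gene lists were chosen with earlier results of these data known. Gene starts and the distances between them are from the GENCODE annotation. Sequences are from RefSeq windows of GRCm38.p6, matched by symbol. Figures used matplotlib 3.10.9.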

Additional observations from a re-analysis of the deposited data

How the results depend on the processing

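No paired analysis was possible because each group has 1 library. In fibroblast-like cells the fibrillar laser ratio of aged mice, 1.62, was 1.68 with trimmed-mean and 1.69 with median-of-ratios scaling, 1.51 with thinned cells, 1.60 without doublet removal, 1.58 with cells picked by their own markers and 1.35 with equal cluster weights. In young mice, 1.62 was 1.72, 1.73, 1.67, 1.60, 1.60 and 1.23 in that order, and 1.64 with collagens out of the total. The age ratio after laser, 0.325, was 0.283, 0.286, 0.318 with collagens out of the total, 0.339 with own markers and 0.363 with equal weights. Without lesions, 0.325 was 0.302, 0.302, 0.321 with collagens out of the total, 0.359 thinned, 0.327 without doublet removal, 0.345 with own markers and 0.330 with equal weights. For basement membrane collagens in endothelial-like cells the aged laser ratio, 1.46, was 1.34 thinned. In young mice, 1.82 was 1.89 with each scaling, 1.59 thinned, 2.01 with collagens in the clustering, 1.92 with own markers, 1.45 with equal weights and 1.98 without the mixed clusters, an alternative chosen after seeing the data. The age ratio after laser, 0.745, was 0.673 with each scaling and 0.628 with equal weights. Without lesions, 0.928 was 0.875 and 0.885 with the scalings, 0.867 thinned and 0.981 with own markers, and turned to 1.01 with collagens in the clustering, 1.18 with equal weights and 1.02 without the mixed clusters. The cause was not tested. Of the 2-fold counts in fibroblast-like cells, the 3 higher after laser in aged mice became 5 without a UMI minimum and 9 at 1.5-fold, and the 2 lower became 1 with each scaling, thinned or with own markers and 8 at 1.5-fold. In young mice the 10 higher became 6 thinned and 4 with equal weights, and the 2 lower became 1 with each scaling, 0 thinned, 4 with equal weights and 7 at 1.5-fold. Between CNV libraries the 0 higher in aged mice became 1 without doublet removal or with collagens in the clustering, 2 with own markers or equal weights and 7 at 1.5-fold, and the 12 lower became 22 at 1.5-fold. Between controls the 1 higher became 5 thinned, 2 without doublet removal or with equal weights, 3 with own markers and 6 at 1.5-fold, and the 12 lower became 6 thinned. Of 115 ratios of named members past 2-fold over all classes, 108 and 109 stayed past it with the scalings, 115 with collagens out of the total and 83 with equal weights, and 70 of 97 thinned and 73 of 99 with own markers. Single ratios that turned were Col11a1 in amacrine-like cells (aged laser, thinned, 0.610), Col6a1 and Col12a1 in ciliary-epithelium-like cells (young laser, own markers, 3.97 and 2.33), Col16a1 in skeletal-muscle-like cells (young laser, thinned, 1.20), and in melanocyte-like cells, young laser, Col3a1 (1.03 without doublet removal, 3.60 with own markers), Col6a2 (1.04) and Col8a1 (0.95) with own markers, and Col4a5 for age after laser (0.909, own markers). None of these is used above. Depth limits members under about 20 UMIs in 2 libraries, and no alternative stands in for replicate animals.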

Other observations

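Cluster 27, which stayed unnamed and had Kcna1 among its leading genes, held 35 cells of aged CNV, 30 of aged control, 133 of young CNV and 65 of young control, and carried collagens of its own. Col28a1, a beaded collagen known from nerve sheaths, was at 268 CPM in aged CNV, 307 in aged control, 149 in young CNV and 183 in young control, higher in both aged libraries. Col18a1 in this cluster was at 1400, 126, 940 and 407 CPM and Col5a2 at 900, 168, 710 and 281 CPM, and for both the 2 CNV libraries lay above the 2 controls. Summed fibrillar CPM there were 3399, 1046, 4095 and 3123, also higher in each CNV library than in its control. The 9 fibroblast markers summed to 2155, 986, 1389 and 1959 CPM in the cluster, higher in aged CNV than in aged control and lower in young CNV than in young control, and the 7 Schwann cell markers to 7289, 17748, 15995 and 19097 CPM, lowest in aged CNV. The part of either list in these values was not tested.

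Ciliary-epithelium-like cells were compared in young mice only, with 46 cells of young CNV and 22 of young control. The chains of type IX collagen, a component of the vitreous, were each higher in young CNV than in young control there. Col9a1 was at 618 CPM in young CNV and 210 in young control, Col9a2 at 175 and 58.4 CPM, and Col9a3 at 213 and 61.9 CPM. The young laser ratios were 2.95, 2.99 and 3.45, and all rest on the 22 cells of young control. With cells picked by their own markers, the young laser ratios of Col6a1 and Col12a1 in this class turned. In Müller-glia-like cells, which also held Col9a1, the gene was at 712 CPM in young CNV and 728 in young control.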
